A study of Homo sapiens with 5 samples.

Results

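STMN2-high cells were found in both day 10 cultures of a protocol that turns WA09 cells, an established human embryonic stem cell line, toward GnRH neurons. A cell was kept when its barcode held at least 10000 unique molecular identifiers (UMIs, counted mRNA molecules), at least 3000 genes and a mitochondrial share under 10%. A kept cell was called STMN2-high when it held at least 20 STMN2 UMIs. This gave 91 of 4999 kept day 10 cells, out of 44007 barcodes in the whole series. D10_dSMADi was a wild type culture grown to day 10 with dSMADi, that is dorsomorphin and SB431542, inhibitors of BMP and of activin and TGF-beta signalling. D10_XAV939 was the same line grown with dSMADi and, in addition, 10 µM XAV939, a tankyrase inhibitor that lowers canonical Wnt signalling. D0, D5_dSMADi and D5_XAV939 were tagged and pooled with them in the same droplet run, and D22, D24 and D26 were separate later libraries of the same line, after FGF8 and, later, the Notch pathway inhibitor DAPT had been added. The paper describes D22, D24 and D26 under its original protocol, without XAV939. Each condition was 1 culture with no replicate, so no comparison below has a test, and every interval is a 95% interval that covers counting error only.

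STMN2 encodes stathmin 2, a tubulin-binding protein of growth cones that is made by young neurons. In the developing nervous system, a progenitor that leaves the cell cycle passes through a cascade of basic helix-loop-helix (bHLH) factors, in which NEUROG1 acts before NEUROD1, and then makes neuronal cytoskeleton such as the neurofilament NEFM and receptors of axon guidance such as ROBO3. In this protocol most neurons are sought after day 20, when Notch signalling is blocked, and day 10 is a stage of neural progenitors.

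D10_dSMADi held 18 STMN2-high cells among 2647 kept cells, a share of 0.680% (exact Clopper-Pearson interval 0.404 to 1.07%). D10_XAV939 held 73 among 2352, a share of 3.1% (2.44 to 3.89%). The intervals of both shares did not overlap, but with 1 culture each the treatment and the culture cannot be told apart. The same limits found 3 of 1105 cells at D0, where the median depth was 67232 UMIs, none of 2423 at D5_dSMADi, which allows a share of up to 0.124%, and none of 2830 at D5_XAV939, which allows up to 0.106%. Few cells before day 10 thus passed the threshold. At D22 the same limits found 1831 of 7141 kept cells, at D24 1038 of 1065 and at D26 2857 of 2869. The limits on UMIs, genes and mitochondrial share kept 72.7% of barcodes at D22, 10.8% at D24 and 23.6% at D26, against 95.3% and 89.2% at day 10, so that the later values cover only the barcodes that passed.

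The STMN2 counts of the chosen cells follow from the rule and are given as a description. In D10_dSMADi they held 32 STMN2 UMIs at the lowest, 80.5 at the median and 109 at the highest, and in D10_XAV939 20, 85 and 211. Per 10000 UMIs of the cell, the lowest, median and highest were 3.18, 36.7 and 76.3 in D10_dSMADi and 1.75, 37.9 and 81.5 in D10_XAV939. Of the other kept cells, 98.3% in D10_dSMADi and 97.7% in D10_XAV939 held 0 or 1 STMN2 UMI. In D10_dSMADi the chosen cells nearest the threshold held 32, 47 and 55 UMIs and the others nearest it 13, 12 and 9. In D10_XAV939 the nearest chosen cells held 20, 22, 27, 37 and 40 UMIs and the nearest others 19, 12, 12, 11 and 10. Few cells lay near the threshold: lowering it to 10 gave 20 and 79 cells, and raising it to 40 gave 17 and 69.

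**Figure D1:**
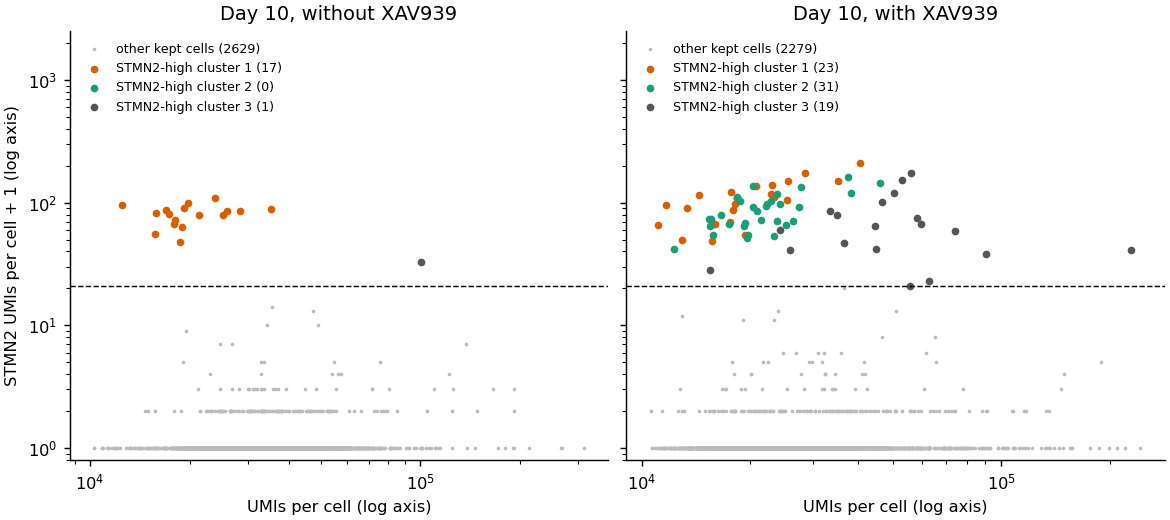
STMN2 UMIs plus 1 of each kept day 10 cell (log axis) against the UMIs of the cell (log axis), without XAV939 on the left and with it on the right. Grey points are other kept cells, coloured points are the 18 and 73 STMN2-high cells by cluster, and the dashed line is the threshold of 20 UMIs. Few cells lie near the line, which separates the grey from the coloured points by construction, and the deepest coloured cells, of cluster 3, reach down to the line.

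The STMN2-high cells were shallower than the rest and had higher doublet scores, with like mitochondrial and tag shares. The median depth of STMN2-high cells was 19157.5 UMIs against 32482 in the other cells of D10_dSMADi, and 22945 against 25643 in D10_XAV939. The median mitochondrial share was 2.58% against 2.49% and 2.50% against 2.27%. Tags of other samples took a median of 4.45% of a cell's tag UMIs against 4.53%, and 4.27% against 5.15%. No barcode was shared between the day 10 files, and the labelled tag was the highest in every barcode of both. Both facts follow where a pooled run is split by these tags, and neither can show 2 cells of the same culture in a barcode. The median doublet score, a measure of likeness to simulated pairs of cells, was 0.153 against 0.0656 in the other cells of D10_dSMADi and 0.0903 against 0.0701 in D10_XAV939. In D10_dSMADi the lowest score of the 18 cells, 0.131, was above the upper quartile of the others, 0.0990. A score over 0.25, which marked 2.53% and 2.17% of kept cells, was reached by 0 of 18 and 6 of 73 STMN2-high cells. These 6 cells had a median of 41606.5 UMIs and all fell in cluster 3, described next.

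The 91 cells fell into 3 clusters when grouped without STMN2, and neuron markers were found in all of them, at lower levels in cluster 3. Cluster 1, of 40 cells, was led by GAP43, STMN4, P2RX3, SNCG, NSG1 and GNG3, which include growth cone and synaptic genes, and TUBB3 and NEFM UMIs were in all 40 cells. Cluster 2, of 31 cells, was led by BHMT, CBLN1, GNG8, CABP7, PARD3B, TESC and CHRNA3, and TUBB3 and NEFM UMIs were in all 31 cells. Cluster 3, of 20 cells, was led by TOP2A, UBE2C, HES5, CENPF, ASPM and DLGAP5, genes of cell division and, in HES5, of progenitors held by Notch signalling, and TUBB3 UMIs were in all 20 of its cells and NEFM UMIs in 16. Of the other kept cells, 10.7% in D10_dSMADi and 9.78% in D10_XAV939 held a NEFM UMI. A cluster 3 cell with 55669 UMIs held 1 TUBB3 and 0 NEFM UMIs, so a UMI in deep cells is weak evidence of a neuron. The leading genes of cluster 3 go against the label of a neuron, so the 91 cells are called STMN2-high cells here. STMN2 in cluster 3 had a median of 13.4 UMIs per 10000 against 46.9 in cluster 1 and 39.7 in cluster 2. Its cells were deep, with a median of 51605.5 UMIs (15483 to 228846), against 18584.5 and 20953 in the others. Cluster 1 held 17 cells of D10_dSMADi and 23 of D10_XAV939, cluster 2 held 31 of D10_XAV939 alone, and cluster 3 held 1 and 19. Some of the genes that define the clusters, such as CHRNA3 and GNG8, differ between the treatments, and a cluster from 1 library cannot be told apart from that library, so these counts are no comparison of the treatments.

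Cluster 3 carried progenitor transcripts, with NEFM beside them in part of its barcodes. NEFM UMIs ran from 0, as in a cell of 63090 UMIs, to 141 in a cell of 58160 UMIs, while STMN2 is there by the rule. SOX2, a transcription factor of neural progenitors, had a median of 7.54 UMIs per 10000 in the 19 cluster 3 cells of D10_XAV939 (1.29 to 16.9), against 10.1 in the other kept cells and 0.63 in the 54 cells of clusters 1 and 2. HES5, a Notch target, had medians of 4.83, 8.81 and 0.28 in the same order. TOP2A, a topoisomerase of dividing cells, had medians of 3.68, 2.45 and 0. HES5 and TOP2A are among the genes that lead cluster 3, so their excess over clusters 1 and 2 follows in part from how it was drawn. All 19 cells had a SOX2 UMI and 15 a TOP2A UMI, against 42 and 24 of the 54 cells of clusters 1 and 2, which are shallower. The single cluster 3 cell of D10_dSMADi had 100772 UMIs and held 3.57 SOX2, 0.20 HES5 and 15.7 TOP2A UMIs per 10000. Because these cells are deep, they held 22.3% of all UMIs of the STMN2-high cells in D10_dSMADi, in 1 cell, and 48.5% in D10_XAV939. Summed levels of progenitor and of neuron genes thus both move with cluster 3. Without it, 192 of the 444 genes called higher in D10_XAV939 stood over 1.5 times above their level with it, at most 1.90 times. In D10_dSMADi none of 931 did, with a largest ratio of 1.29. There, leaving out a cell with 22.3% of the UMIs cannot raise a gene by 1.5 times, so this is no contrast of the treatments. Of the genes called lower, 141 of 143 in D10_XAV939 and 344 of 600 in D10_dSMADi stood over 1.5 times below their level with cluster 3. Whether cluster 3 barcodes, or the other STMN2-high barcodes, hold 1 cell or more than 1 was not tested.

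**Figure D2:**
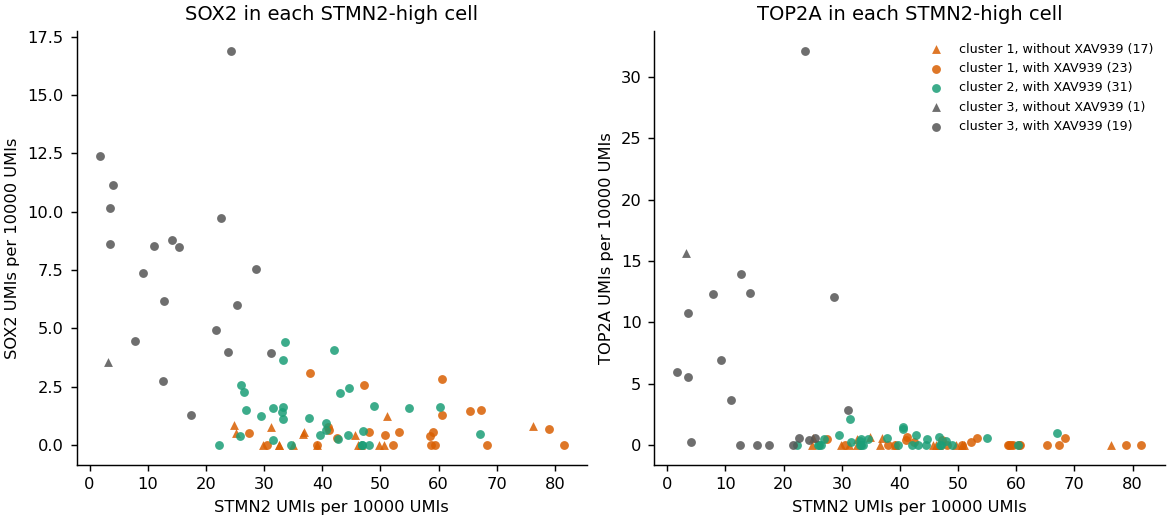
SOX2 (left) and TOP2A (right) UMIs per 10000 UMIs against STMN2 UMIs per 10000 UMIs, with 1 point for each of the 91 STMN2-high cells, by cluster and treatment. SOX2 reaches 16.9 in cluster 3, where STMN2 has a median of 13.4, and stays at 4.43 or lower in the 71 cells of clusters 1 and 2.

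To describe what these cells expressed, UMIs were summed over the STMN2-high cells and over the other kept cells of the same treatment and scaled to the summed UMIs of the group (CPM). A gene was measured when the mean of both CPM was at least 10, and was called higher or lower at a 2-fold ratio with 10 CPM added to both. Of 8822 genes measured in D10_dSMADi, 931 were higher (10.6%) and 600 lower (6.8%), and of 8663 in D10_XAV939, 444 were higher (5.13%) and 143 lower (1.65%). The median log2 ratio over all measured genes was 0.03 and -0.06. Without cluster 3 the calls were 1211 higher (13.7%) and 1000 lower (11.3%) in D10_dSMADi, and 716 higher (8.26%) and 764 lower (8.81%) in D10_XAV939, so that a single deep cell moved the lower calls of D10_dSMADi by over 1.5 times. Across both treatments 370 genes were higher in both, which is 39.7% of the higher calls of D10_dSMADi and 83.3% of those of D10_XAV939, and 107 were lower in both. No gene was called in opposite directions. The cells were chosen on STMN2 from these same counts, so the ratios describe the chosen cells. A gene near 0 in the other cells is measured only through the STMN2-high cells, and the filter then fixes its call as higher. The shares of calls over all measured genes are the background for the list counts below.

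NEUROG1 and NEUROD1 were near 0 in the other day 10 cells. NEUROG1 UMIs ran from 0 over a median of 4 to 8 in the 18 D10_dSMADi cells and from 0 over 3 to 11 in the 73 D10_XAV939 cells. Its level was 146 CPM (Poisson interval 113 to 186) against 0.07 in the other cells, and 108 (94.8 to 122) against 0.03. A NEUROG1 UMI was found in 15 of 18 and 53 of 73 STMN2-high cells, and after thinning every cell to 10000 UMIs in 14 and 44, while 0.152% and 0.0878% of the other cells held one. NEUROD1 UMIs ran from 0 over 3 to 12 and from 0 over 5 to 30, giving 150 CPM against 0.31 and 203 against 0.63. A NEUROD1 UMI was found in 17 of 18 and 66 of 73 of the chosen cells, and in 1.14% and 1.97% of the other cells. NEUROD1 overlaps CERKL on the same strand, and reads the 2 genes could share cannot be told apart here. NHLH1, a further bHLH factor of young neurons, stood at 356 CPM against 3.02 and 466 against 2.27, with a UMI in 18 of 18 and 71 of 73 cells, and in 10.2% and 6.49% of the other cells. Over the list of proneural and neuronal bHLH cascade genes, 14 of 16 measured were higher and 0 lower in D10_dSMADi and 10 of 13 higher in D10_XAV939, with median log2 ratios of 3.11 and 2.40. Its summed level was 4119 CPM against 1008 in the other cells, and 2987 against 1101. Other members of that list were near 0: NEUROD6 and ATOH1 had 0 UMIs in all 91 cells, and NEUROG2 stood at 13.3 and 6.19 CPM.

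The sequence before the start of such genes is where bHLH factors can bind, at E-boxes. RefSeq promoters (GRCh38.p14, 250 bases before each gene's start) were found for 11 of the 16 genes made up of the markers and the 15 highest genes, and were searched on both strands for CAGATG (reverse complement CATCTG), a type used by neurogenins and NEUROD1, and for CAGCTG, its own reverse complement. CAGATG was found in 1 of 11, that of NHLH1, against 12.2% of all 35116 promoters, and CAGCTG in 2 of 11, those of RGS16 and ROBO3, against 14.0%. In the table, the ROBO3 start lies inside the longer gene model used for the counts, so its stretch is not shown. The other 2 are shown 5′ to 3′ with the E-box in capitals, NHLH1 at chr1:160366821-160366920 on the plus strand, where the E-box starts 210 bases before the gene's start, and RGS16 at chr1:182604489-182604588 on the minus strand, where it starts 152 bases before. RGS16, a regulator of G protein signalling, stood at 199 CPM against 6.25 in D10_dSMADi and 417 against 9.10 in D10_XAV939. A match is a description of the letters and not a bound site.
NHLH1: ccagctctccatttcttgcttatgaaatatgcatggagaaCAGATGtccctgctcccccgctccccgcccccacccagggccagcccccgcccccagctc
RGS16: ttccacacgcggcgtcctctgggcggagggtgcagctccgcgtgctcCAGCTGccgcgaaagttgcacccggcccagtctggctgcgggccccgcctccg

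Most measured genes of the neuronal cytoskeleton were higher. NEFM UMIs ran from 4 over a median of 41 to 169 in D10_dSMADi and from 0 over 51 to 257 in D10_XAV939. Its level was 2182 CPM (2048 to 2322) against 8.97 in the other cells, and 1884 (1827 to 1941) against 4.08, a log2 ratio of 6.85 and 7.07. Without cluster 3 NEFM stood at 2796 and 3087 CPM. TUBB3, the neuronal beta-tubulin, ran from 64 over 99.5 to 150 UMIs and from 1 over 81 to 254, and without cluster 3 it stood at 5066 and 4197 CPM. Of 24 measured genes of the list, which includes STMN2 and NEFM, 23 were higher and 0 lower in D10_dSMADi and 21 higher and 0 lower in D10_XAV939, with median log2 ratios of 3.21 and 2.25. DCX, a microtubule protein of migrating neurons, stood at 427 CPM against 3.32 and 299.5 against 19.7. NEFL, the light neurofilament, stood at 400.1 against 13.4 and 345 against 7.25. PRPH, the peripheral neuron filament, was not measured, with 0 and 3.54 CPM. The genes whose level over the 91 cells was most like that of STMN2, among 4766 with a UMI in most of them, were TUBB3 (Pearson r = 0.82), MLLT11 (0.79), NEFM (0.71), BASP1 (0.71) and KIF5C (0.71). The points share 2 libraries and a spread of depths, so r is a description.

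ROBO3 and other guidance genes were higher as well. ROBO3, the Robo family receptor of commissural axons, ran from 0 over a median of 7.5 to 37 UMIs in D10_dSMADi and from 0 over 12 to 59 in D10_XAV939. That gave 345 CPM (log2 ratio 4.67) against 3.95, and 535 (5.24) against 4.43, with a UMI in 15 of 18 and 69 of 73 cells. Without cluster 3 ROBO3 stood at 441 and 901 CPM. Around it, CNTN2, an axonal adhesion molecule of commissural axons, stood at 104 CPM against 0.74 and 265 against 0.85, and DCC, a netrin receptor, at 108 against 0.43 and 123 against 2.06. The list of axon guidance and migration had 11 higher and 1 lower of 17 measured in D10_dSMADi and 8 higher and 1 lower of 15 in D10_XAV939 (median log2 ratios 1.25 and 1.43). SEMA3A was the lower gene in both, at 13.3 CPM against 45.1 and 24.8 against 64.5.

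Genes of RNA processing and of secretion followed. ELAVL3, a neuronal RNA-binding protein, stood at 612 CPM against 1.18 and 329 against 1.20, with a UMI in 18 of 18 and 72 of 73 cells. The list of RNA-binding and splicing genes had 11 higher and 2 lower of 14 in D10_dSMADi and 9 higher and 1 lower of 14 in D10_XAV939 (median log2 ratios 2.26 and 1.56). Both lower genes of D10_dSMADi act against neuronal transcripts, REST, a repressor of neuronal genes, at 17.7 CPM against 118 (49.5 against 121 with XAV939), and PTBP1 at 55.3 against 127. PTBP1 was not past 2-fold in D10_XAV939, at 98.2 against 142. Of synapse and secretion genes 17 of 18 were higher in D10_dSMADi and 14 of 16 in D10_XAV939, and 0 lower (median log2 ratios 2.62 and 1.82). Among them SYP, a synaptic vesicle protein, stood at 161 CPM against 1.21 and 208 against 1.05, and SCG3, a secretory granule protein, at 301 against 3.92 and 153 against 3.15.

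Genes of transmitter identity were found at low counts. SLC17A6, a vesicular glutamate transporter, stood at 39.8 and 18.6 CPM, with a UMI in 5 of 18 and 13 of 73 cells and 0 UMIs in the others. By cluster it had a UMI in 17 of 40, 0 of 31 and 1 of 20 cells, and within cluster 1 its log2 ratio of D10_XAV939 over D10_dSMADi was 0.36. SLC17A7, another glutamate transporter, stood at 30.9 and 12.4 CPM, with a UMI in 9 and 20 cells. GAD2, which makes GABA, had 0 UMIs in both groups, and GAD1 stood at 4.42 and 1.77 CPM. The transmitter list thus had 2 measured genes in D10_dSMADi, both higher (median log2 ratio 2.17), and 0 in D10_XAV939. In the other cells the whole list summed to 2.38 and 5.02 CPM. Its genes were thus measured through the STMN2-high cells, and their calls as higher largely follow from that filter. Without cluster 3 it had 2 measured genes, both higher, in each treatment (2.46 and 1.79). TH, DBH, SLC6A5 and SLC5A7 stood at 4.42 CPM or lower in both groups.

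SST and CRH transcripts sat in under 50% of the cells, while the retinoic acid binding protein CRABP1 was in all of them. SST, which encodes somatostatin, ran from 0 over a median of 0 to 114 UMIs in D10_dSMADi and from 0 over 0 to 300 in D10_XAV939. Its UMIs were found in 6 of 18 and 31 of 73 cells, and the 5 highest cells held 99.5% and 54.5% of them, so that its summed level of 455 and 764 CPM, against 0.35 and 0.50 in the others, is that of a minority. Without its highest cell SST stood at 209 CPM in D10_dSMADi, and without cluster 3 at 586 and 1443. CRH, corticotropin-releasing hormone, was found in 3 and 32 cells, and both SST and CRH at 3 UMIs or more in 1 and 12 cells. ADCYAP1, which encodes the neuropeptide PACAP, was found in 14 and 38 cells, at 81.8 and 33.2 CPM. CRABP1 ran from 91 over 169 to 365 UMIs and from 5 over 189 to 548, giving 7446 CPM against 259.5 and 7388 against 250.5. Its log2 ratios were 4.79 and 4.83, although 98.1% and 93.3% of the other cells also held a CRABP1 UMI. Without cluster 3 CRABP1 stood at 9321 and 12094 CPM. The list of neuropeptides and retinoid binding had 7 of 8 measured genes higher in D10_dSMADi and 8 of 8 in D10_XAV939 (median log2 ratios 3.24 and 2.86). GNRH1, the transcript the protocol is aimed at, had 0 UMIs in the 452341 UMIs of D10_dSMADi, which allows up to 6.63 CPM, and 0.44 CPM in D10_XAV939, with 0.92 and 0.70 in the other cells.

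The cell cycle inhibitor CDKN1C was higher in both treatments. More cell cycle genes were called lower without cluster 3 than with it, but such genes lead cluster 3, so this follows in part from how it was drawn. CDKN1C ran from 4 over a median of 25 to 48 UMIs and from 0 over 15 to 79, giving 986 CPM against 14.1 and 601 against 13.9, and without cluster 3 1237 and 950 CPM. The exit list had 4 of 9 genes higher in D10_dSMADi and 5 of 9 in D10_XAV939, 0 lower, with median log2 ratios of 0.58 and 1.10. Of cell cycle genes 0 were higher and 19 of 26 lower in D10_dSMADi, and 0 higher and 10 of 27 lower in D10_XAV939 (median log2 ratios -1.27 and -0.89). Without cluster 3, whose leading genes include TOP2A, UBE2C, CENPF and MKI67 of this list, the lower calls were 24 of 26 and 26 of 26 (-2.65 and -2.49). CLSPN and MCM3, which act at the replication fork, were among the 10 genes lowest by rule, at 48.6 CPM against 132 and 53.5 against 178 for CLSPN. MCM3 stood at 33.2 against 108 and 60.6 against 176. Without cluster 3 CLSPN stood at 17.1 and 11.2 CPM and MCM3 at 17.1 and 25.8. In single cells, at least 3 TOP2A UMIs were found in 1 of 18 and 14 of 73.

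The progenitor genes HES5 and SOX2 were lower in the STMN2-high cells of both treatments. HES5 ran from 0 over a median of 0.5 to 2 UMIs in D10_dSMADi and from 0 over 1 to 193 in D10_XAV939, at 31.0 CPM against 954 and 387 against 952. Without cluster 3 HES5 stood at 34.1 and 40.4 CPM, but HES5 is among the genes that lead that cluster, so the lower D10_XAV939 level follows in part from how it was drawn. SOX2 ran from 0 over 0.5 to 36 and from 0 over 3 to 284, at 106 CPM against 718 and 463 against 1050, and without cluster 3 at 34.1 and 106. In D10_XAV939 the 5 highest cells held 64.3% of HES5 and 52.4% of SOX2 UMIs. Neural progenitor genes were lower for 12 of 21 in D10_dSMADi, with 0 higher, and for 7 of 24 in D10_XAV939, with 1 higher (median log2 ratios -1.16 and -0.72). Without cluster 3 the lower calls were 15 of 21 and 15 of 23. The Notch pathway list moved both ways, with 4 higher and 6 lower of 15 in D10_dSMADi and 4 and 4 of 15 in D10_XAV939 (median log2 ratios -0.78 and -0.52). Without cluster 3 it had 3 higher and 9 lower, and 5 and 8 (-1.18 and -1.14). Higher in both, with cluster 3 kept, were MFNG, HES6, CBFA2T2 and DLL3, an inhibitory Notch ligand, at 230 CPM against 7.31 and 390.2 against 6.45. Lower in both were the targets HES5, HES4 and NRARP and the glycosyltransferase LFNG, at 11.1 CPM against 127 and 33.6 against 83.6. Without cluster 3 LFNG had 0 UMIs in D10_dSMADi and stood at 12.9 CPM in D10_XAV939. The remaining genes lowest by rule were RAB11FIP1, TAGLN, MYL9, TPM1, TTYH1, LRP2, MGST1 and SFRP2, of which TAGLN, MYL9 and TPM1 belong to the actin and myosin cytoskeleton. TAGLN stood at 6.63 CPM against 87.5 and 98.7 against 368, and without cluster 3 at 8.53 and 8.59. SFRP2, a secreted Wnt antagonist of progenitors, stood at 179 against 1140 and 231 against 579, and without cluster 3 at 42.7 and 58.4.

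**Figure D3:**
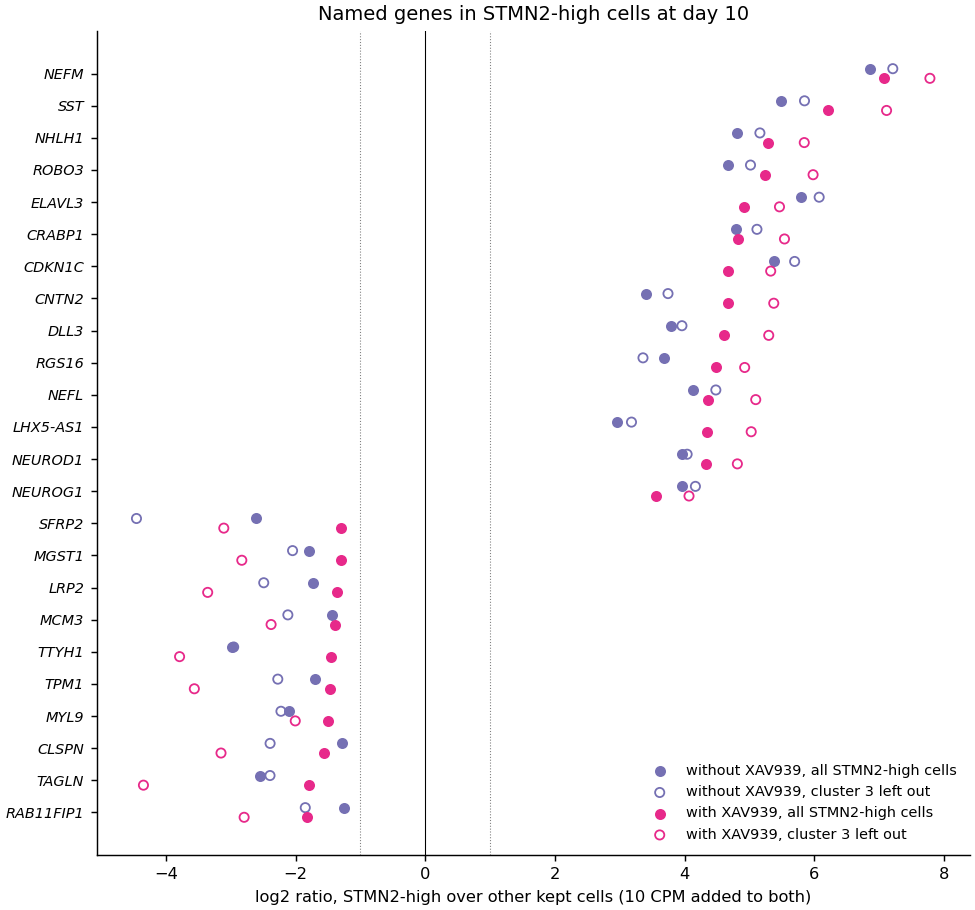
log2 ratio of CPM in STMN2-high over other kept cells (10 CPM added to both) for the markers other than STMN2, the other highest genes reported here and the 10 lowest genes of the naming rule, without (purple) and with XAV939 (pink), for all STMN2-high cells (filled) and with cluster 3 left out (open). Dotted lines mark 2-fold; NEFM lies at 6.85 and 7.07, and without cluster 3 the pink points of the lower genes lie further from 0 than with it.

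Subtype factors were mixed, and no cell was assigned to a neuron class. ONECUT2 ran from 3 over a median of 11 to 43 UMIs in D10_dSMADi and from 0 over 3 to 27 in D10_XAV939, at 475 CPM against 1.09 and 155 against 1.95. LHX5, a LIM homeobox factor, stood at 153 CPM against 29.8 and 148 against 15.1, and its antisense partner LHX5-AS1 at 599 against 68.4 and 507 against 15.5. LHX9, of the same family, stood at 150 CPM against 0.18 and 67.7 against 0.07. TBR1, a T-box factor of glutamatergic forebrain neurons, stood at 75.2 against 0.07 and 46.9 against 0.13, with a UMI in 5 of 18 and 31 of 73 cells. Of this list 12 of 17 measured genes were higher and 2 lower in D10_dSMADi, the lower being LMO4 and FEZF2, and 10 of 15 were higher and 0 lower in D10_XAV939 (median log2 ratios 2.03 and 1.92). Without cluster 3 the D10_XAV939 calls were 13 higher and 3 lower of 18. ISL1, PHOX2A, GATA3 and POU4F3 had 0 UMIs in all 91 cells, and POU4F1, a sensory neuron factor, stood at 11.1 and 15.9 CPM. UNCX and RSPO3 were in no list and are named after their values were seen, at 144 CPM against 0.04 and 115 against 0.04 for UNCX, and 201 against 0.19 and 186 against 0.20 for RSPO3. A single cell held 66 of the 91 RSPO3 UMIs of D10_dSMADi, where 7 of 18 cells had one, and without it the level was 60.0 CPM, while 59 of 73 cells of D10_XAV939 had one. Of forebrain to hindbrain position genes 1 of 14 was higher and 5 lower in D10_dSMADi and 2 of 15 higher and 3 lower in D10_XAV939 (median log2 ratios -0.87 and -0.24), with NR2F1 lower in both and IRX3 higher in both. Over all measured genes 10.6% and 5.13% were higher and 6.8% and 1.65% lower, so the 1 higher gene of D10_dSMADi is near the share of all genes. Without cluster 3 the lower calls were 8 of 13 and 5 of 14. HOXA2, HOXA3, HOXB3 and EN1 had 0 UMIs. The Wnt pathway list, which holds ligands and the ligand carrier WLS beside feedback genes, had 0 higher and 3 of 4 lower in D10_dSMADi and 0 of 4 in either direction in D10_XAV939 (median log2 ratios -1.31 and -0.12). Without cluster 3 the list had 1 higher and 3 lower of 5, and 1 higher and 1 lower of 3 (-1.57 and 0.10). With cluster 3 kept the lower ones were WLS and the ligands WNT5B and WNT7B. The feedback gene AXIN2 stood at 0 and 2.65 CPM, too low to be compared.

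Few markers of other cell types were called higher, TFAP2A in both treatments, NGFR in D10_dSMADi and DACH1 in D10_XAV939. The neural crest and Schwann list had 2 of 2 measured genes higher in D10_dSMADi (median log2 ratio 2.11), and 1 of 1 in D10_XAV939, TFAP2A (4.12), and its summed level over the cells ran from 0 over a median of 31.7 to 670 CPM and from 0 over 275 to 736. In the other cells TFAP2A stood at 0.44 and 2.84 CPM. TFAP2A was thus measured only through the STMN2-high cells, and the filter fixed its call as higher. The defining crest genes SOX10 and FOXD3 stood at 2.21 CPM each in D10_dSMADi and at 0 and 0.44 in D10_XAV939, and SNAI2 at 0 and 1.33. The cranial placode list had 0 of 1 higher in D10_dSMADi and 1 of 2 in D10_XAV939, DACH1 (median log2 ratios 0.43 and 0.82), with EYA1 at 2.21 and 0.44 CPM. Pluripotency genes had 0 higher and 1 of 5 lower, and 0 of 5 (-0.41 and -0.22), at a summed level of 230 CPM against 326.5 and 253.5 against 316, non-neural ectoderm 0 higher and 2 of 3 lower, and 0 of 3 (-1.48 and -0.50; 2 of 3 lower in each without cluster 3), and mesenchyme and endothelium 0 higher and 2 of 3 and 2 of 2 lower (-1.98 and -1.64). The endoderm list had 0 of 1 called in either treatment (-0.88 and -0.30), and the astrocyte and oligodendrocyte list 0 higher and 1 of 1 lower in D10_dSMADi and 0 of 1 in D10_XAV939 (-1.88 and -0.35). Stress and low-oxygen genes had 3 higher and 1 lower of 17, and 1 and 1 of 15 (0.20 and 0.01). Over all measured genes 10.6% were higher and 6.8% lower in D10_dSMADi, and 5.13% and 1.65% in D10_XAV939. With so few genes in these lists, a count of 1 cannot be told apart from those shares. Whether cells of another origin add to the TFAP2A level was not tested.

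The STMN2-high cells of both cultures were also set side by side gene by gene. Of 8717 genes measured between the 73 and the 18 STMN2-high cells, 169 were higher with XAV939 (1.94%) and 273 lower (3.13%). The genes named here were chosen after their values were seen, and because cluster 3 and cluster 2 came almost wholly from D10_XAV939, each ratio is given again within cluster 1, of 23 and 17 cells, and over clusters 1 and 2. Cluster 1 is made up of cells high in its leading genes, so ratios of those genes within it are limited by how it was drawn. Within cluster 1, 175 of 8409 measured genes were higher with XAV939 and 334 lower.

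CHRNA3, the alpha 3 subunit of the nicotinic acetylcholine receptor, was found mostly in the STMN2-high cells of D10_XAV939. Its UMIs ran from 0 over a median of 6 to 23 in D10_XAV939 and from 0 over 0 to 1 in D10_dSMADi, with a UMI in 65 of 73 cells against 1 of 18, and after thinning in 59 against 0. Its level was 200.4 CPM (182 to 220) against 2.21 (0.06 to 12.3), while the other kept cells stood at 0.25 and 0.63. Within cluster 1 a UMI was found in 18 of 23 against 0 of 17 cells, a log2 ratio of 4.33 (5.0 over clusters 1 and 2). CHRNA3 overlaps CHRNA5 on the other strand.

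TFAP2A, a factor of early ectoderm and crest, was also higher with XAV939. It ran from 0 over a median of 6 to 17 UMIs against 0 over 0 to 15, at 214 CPM (195 to 234) against 70.7 (48.4 to 99.9), with a UMI in 70 of 73 against 7 of 18 cells. Within cluster 1 the log2 ratio was 1.32, and over clusters 1 and 2 it was 1.68. Without its highest cell TFAP2A stood at 39.7 CPM in D10_dSMADi. In the other kept cells TFAP2A stood at 2.84 CPM with XAV939 against 0.44 without, with a UMI in 7.06% against 1.41% of cells. It was thus also higher with XAV939 outside the STMN2-high cells. At 3 UMIs or more, CHRNA3 and TFAP2A were found together in 48 of the 73 cells, CHRNA3 alone in 6, TFAP2A alone in 13 and neither in 6. As 54 cells held CHRNA3 and 61 held TFAP2A at that count, many cells would hold both even if the genes were unrelated. GNG8, a G protein gamma subunit, stood at 123 CPM against 13.3 (1.72 within cluster 1 and 2.94 over clusters 1 and 2), CNTN2 at 265 against 104 (1.68 and 1.65) and FEZF1, a forebrain zinc finger factor, at 219 against 46.4 (1.72 and 2.52). In the other kept cells FEZF1 stood at 48.5 against 32.4 CPM.

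LHX1, a LIM homeobox factor, went the other way. It ran from 0 over a median of 7 to 29 UMIs in D10_dSMADi and from 0 over 0 to 14 in D10_XAV939, at 343 CPM (291 to 401) against 61.9 (52.1 to 73.1), with a UMI in 16 of 18 against 34 of 73 cells. Within cluster 1 the log2 ratio of D10_XAV939 over D10_dSMADi was -1.53, and over clusters 1 and 2 it was -1.94. In the 73 cells, at 3 UMIs or more, 11 held both LHX1 and CHRNA3, 43 CHRNA3 alone, 10 LHX1 alone and 9 neither. RND3, a small GTPase, stood at 3.98 CPM with XAV939 against 161 without (-4.07 within cluster 1 and -4.12 over clusters 1 and 2), while the other kept cells stood at 6.01 and 17.0.

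GAP43, SNCG and P2RX3 were lower with XAV939 over all STMN2-high cells and over clusters 1 and 2, with log2 ratios of -2.01, -2.15 and -1.57 in the latter. GAP43 ran from 0 over a median of 10.5 to 44 UMIs in D10_dSMADi and from 0 over 0 to 42 in D10_XAV939, at 553 CPM against 103. Within cluster 1, which these genes lead, the GAP43 levels were 711 and 372 CPM, a log2 ratio of -0.92 that was not past 2-fold. SNCG, a synuclein, stood at 367 against 61.5 CPM (-1.24 within cluster 1), and P2RX3, a purine receptor of sensory neurons, at 148 against 34.5 (-0.47). In the other kept cells SNCG was lower with XAV939 as well, at 3.11 CPM without it against 0.49 with it, with a UMI in 10.3% against 1.40% of cells. GAP43 stood at 5.27 against 4.87 CPM there. Of the 5 markers, ROBO3 was past 2-fold within cluster 1, at a log2 ratio of 1.13, while the ratio was 0.45 for STMN2, 0.32 for NEFM, -0.08 for NEUROG1 and -0.10 for NEUROD1. For TUBB3, which is not a marker of the rule, it was 0.17.

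**Figure D4:**
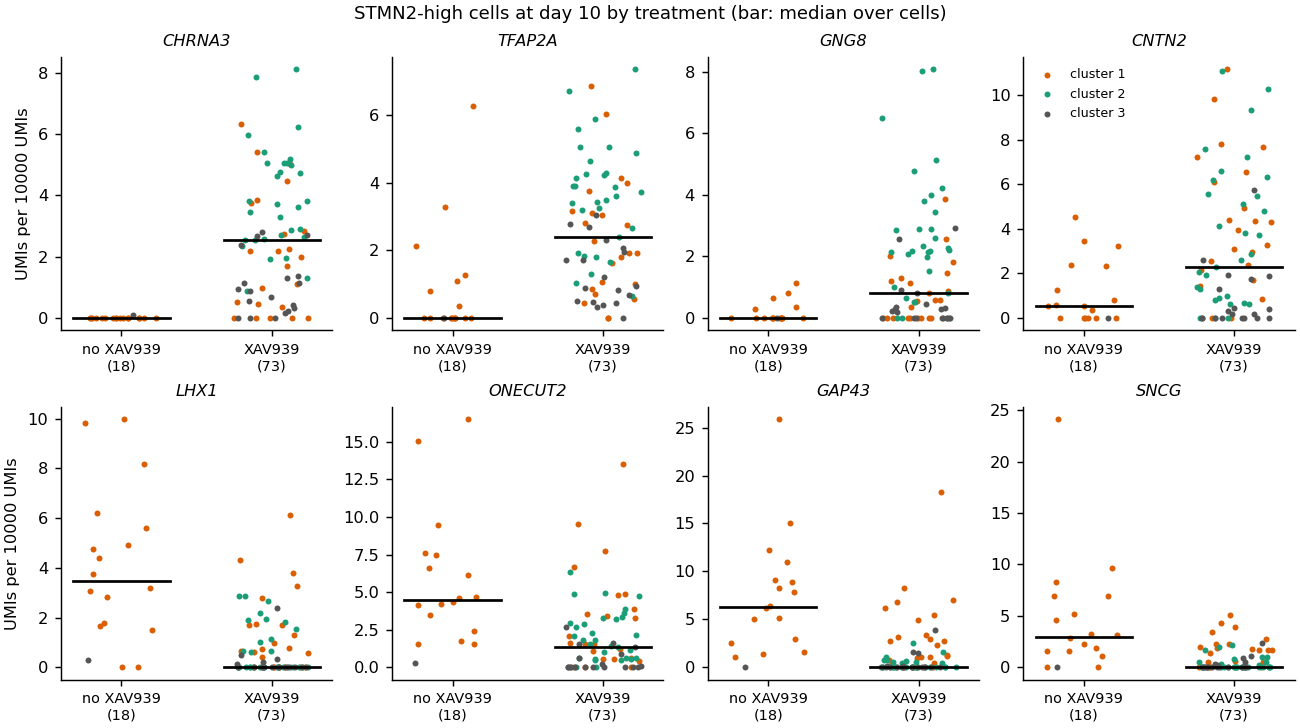
UMIs per 10000 UMIs of 8 genes in each of the 18 STMN2-high cells without XAV939 and the 73 with it, coloured by cluster, with a bar at the median over cells. CHRNA3 lies at or near 0 in all 18 cells without XAV939 and has a median of 2.53 with it, and LHX1 has medians of 3.46 and 0.

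Levels in bands of STMN2 counts use the UMIs that chose the cells and are a description. In the 5 cells with under 40 STMN2 UMIs, all of cluster 3, whose median depth was 63090 UMIs, NEFM stood at 21.5 CPM, against 1418 in the 39 cells with 40 or more but under 80, 2865 in the 43 cells with 80 or more but under 160 and 3404 in the 4 cells with 160 or more. These bands pool both treatments. SOX2 stood at 771, 544, 167 and 191 CPM in the same bands, and at 956, 611, 202 and 191 in D10_XAV939 alone. In D10_dSMADi alone SOX2 stood at 357 CPM in 1 cell and then at 36.7 and 32.5, with 0 cells in the last band. NEUROG1 stood at 18.4, 126, 132 and 105 CPM over both treatments. Cells of cluster 3 were also in the later bands. In the band of 40 or more but under 80, 1 of them had 228846 UMIs and 284 SOX2 UMIs. Such deep cells weigh on the summed levels of a band, and the bands were not counted without cluster 3.

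Set beside the STMN2-high cells of the later days under the same limits, the day 10 cells had another makeup. Median depth was 12802, 13014.5 and 11834 UMIs at D22, D24 and D26, against 19157.5 and 22945 at day 10. The threshold of 20 STMN2 UMIs is thus a larger share of a later cell, and the day 10 levels include cluster 3. CRABP1 stood at 7446 and 7388 CPM at day 10 against 157 at D22, 104 at D24 and 75.9 at D26. ROBO3 stood at 345 and 535 CPM at day 10 and at 20.1, 25.1 and 2.75 later, and SST at 455 and 764 against 0.25, 4.30 and 6.16. NEFM was lower at D22, with 394 CPM, and reached 672 and 1029 at D24 and D26, below its 2182 and 1884 at day 10. NHLH1 stood at 238 CPM at D22, 28.2 at D24 and 2.58 at D26, and NEUROG1 at 519.5, 44.6 and 1.26, so that both were also found in the STMN2-high cells of D22. The bHLH list as a whole was not counted there. GNRH1 stood at 16.8, 1336 and 4764 CPM and GAP43 at 476, 1603 and 2101. CHRNA3 stood at 126, 6.73 and 1.09 CPM and GNG8 stood at 329, 374 and 34.7, without XAV939 by the paper's account. A CHRNA3 UMI was found in 1138 of the 1831 STMN2-high cells of D22. The later libraries were separate runs counted with a gene reference of 33538 against 36601 genes, and day, run and reference cannot be told apart. TUBB3, which overlaps another gene on the same strand, stood at 41.1 to 81.2 CPM in them against 4103 and 2705 at day 10, and the part of the reference in this was not tested.

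**Figure D5:**
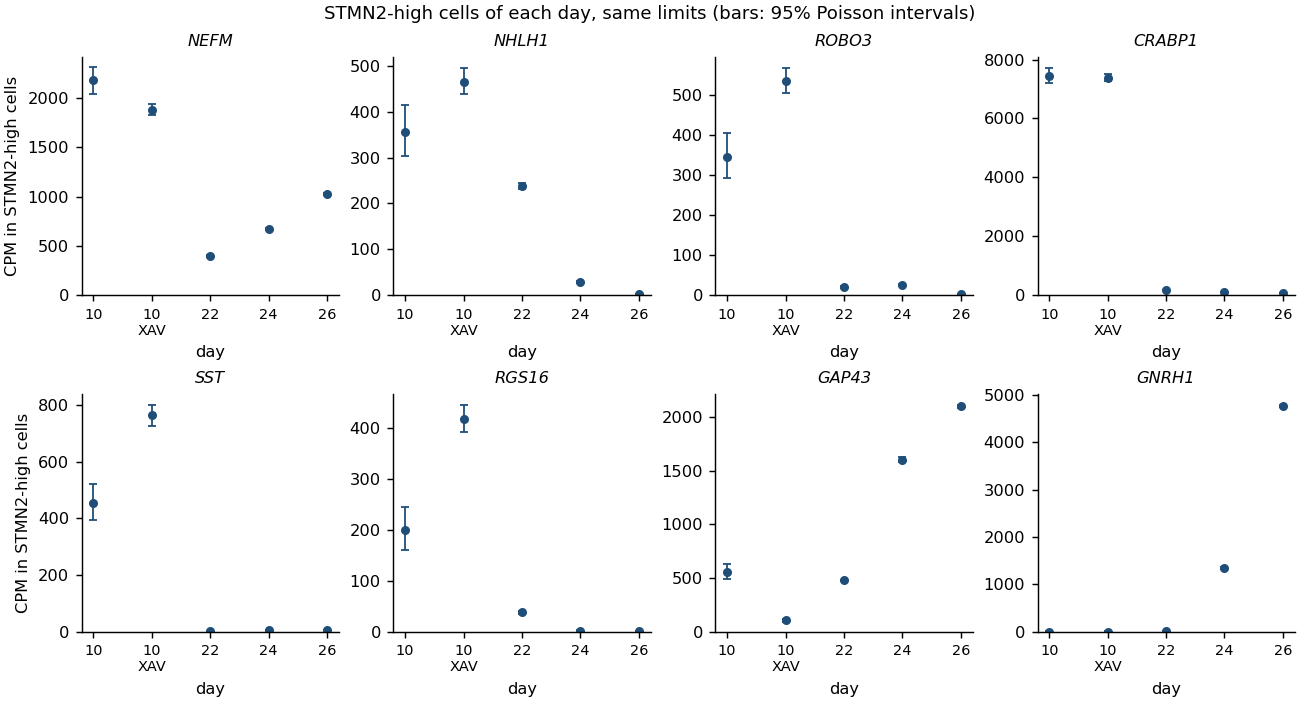
CPM of 8 genes summed over the STMN2-high cells at day 10 without XAV939 (18 cells), day 10 with XAV939 (73), D22 (1831), D24 (1038) and D26 (2857), with Poisson intervals as bars. CRABP1, SST, ROBO3 and RGS16 are highest at day 10, and GNRH1 and GAP43 at D26, where they reach 4764 and 2101 CPM.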

How the data were processed

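The authors sequenced droplet 3′ libraries and deposited UMI counts per gene and cell, made with Cell Ranger against GRCh38. The labels name version 3.1, and the file headers name 6.1.2 for the pooled day 0 to day 10 run and 3.1.0 for the later libraries. Whether introns or strand were used in counting is not given in the sources used here, and of 96 genes looked up 13 overlap another gene on the same strand and 53 on the other. Condition names came from the matrix files of the pooled run and were checked against the deposited tag counts, in which the labelled tag was highest in every barcode and held 95.1 to 95.6% of tag UMIs. The matrices are named D10_N and D10_X, read here as the paper's D10_dSMADi and D10_XAV939. Their 2778 and 2638 barcodes equal the cells the paper gives for these samples. Depth was 97061352 UMIs in D10_dSMADi and 74626306 in D10_XAV939.

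Counts were summed over cells and given as CPM with exact Poisson intervals. Ratios had 10 CPM added to both, called at 2-fold. Shares had exact Clopper-Pearson intervals. UMIs of a cell are not independent of each other, so intervals cover counting error only. Clusters used 1000 variable genes without STMN2, mitochondrial and ribosomal genes, 10 components, 10 neighbours and resolution 0.5 (scanpy 1.11.5, leidenalg 0.10.2, Python 3.11.15). Doublets were kept. The automatic doublet threshold marked 0.151% and 0.298% of kept cells, under 0.5%, so a score of 0.25 was used for the alternative. The ratio code was tested on simulated data with 200 changed genes.

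Genes named were the 5 markers, the 15 highest and 10 lowest by log2 ratio in D10_XAV939 at a mean of 50 CPM with the same call in D10_dSMADi, the 3 genes of each list with the highest level, list genes needed for a count, and the 5 most like STMN2. The highest 15 included STMN2, NEFM, SST, NHLH1, ROBO3, ELAVL3, CRABP1, CDKN1C, CNTN2, DLL3, RGS16, NEFL, LHX5-AS1 and NEUROD1. Some genes that the rule names are not reported here. The cells and gene lists were chosen with earlier results of these data known. Alternatives changed the STMN2 threshold, the filters on cells and genes, the scaling, the added CPM, doublets and the comparison cells. Leaving out cluster 3, or the highest cell of a gene, was added after seeing the data.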

Additional observations from a re-analysis of the deposited data

How the results depend on the processing

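No paired analysis was possible because each condition was 1 culture and no result comes from a test. All 146 called ratios of the named genes kept their sign under all 13 alternatives that gave them, and 136 stayed past 2-fold with a threshold of 10 STMN2 UMIs, 143 with stricter cell filters or median ratio scaling, 144 without the highest cell of each gene and 146 otherwise. Their sizes were less stable, with largest moves on the log2 scale of 3.18 with 1 CPM added, 2.98 without cluster 3, 2.31 at 10 or more STMN2 UMIs and 1.96 at 40 or more. The share of STMN2-high cells moved by more than its interval only in D10_XAV939 without cluster 3, to 2.30%. Counts of lower genes were the least stable. In D10_dSMADi the 600 lower genes became 336 at 10 or more STMN2 UMIs, 999 at 40 or more and 999 at 20 or more after thinning, 998 under the study's limits on complexity, the last 3 of which leave out the 1 cell of cluster 3, 1000 without cluster 3, 924 as a mean over cells and 1025 with 1 CPM added. In D10_XAV939 the 143 became 218 at 40 or more, 593 after thinning, 399 under the study's limits, 764 without cluster 3, 442 as a mean over cells and 407 with 1 CPM added, and the 444 higher genes became 716 without cluster 3. A mean of 50 CPM, which tests fewer genes, gave 381 higher and 241 lower, and 176 and 88. For the complexity limits in D10_XAV939, the mean over cells and the added CPM the cause was not tested. With 18 cells in D10_dSMADi, low levels rest on few UMIs.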
